A study of Mus musculus with 4 samples.

Results

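A group of 10 integrin genes whose proteins bind the extracellular matrix was examined in cells sorted from the periosteum, the membrane on the outer face of bone, of mouse femora. They were taken by name from the deposited table, which lists 47643 genes: the collagen receptor chains Itga1, Itga2, Itga10 and Itga11, the alpha chains Itga5, Itga8, Itga9 and Itgav, and the beta chains Itgb1 and Itgb5. All 10 were found. The TdTomato-positive cells and the TdTomato-negative cells came from the same femora of Sox9CreErt2:TdTomato mice, which carried 1 allele of each transgene and had all received tamoxifen (3 injections of 100 µL at 20 mg/mL, 48 h apart). The tamoxifen-inducible Cre was driven from the Sox9 locus (Sox9tm1(cre/ERT2)Haak) and the reporter, Gt(ROSA)26Sortm14(CAG-tdTomato)Hze, turns on wherever Cre has been active. The red cells are therefore those that expressed Sox9 around the time of tamoxifen and their descendants. The bones were taken, unbroken, 2 weeks after the third injection. The digested surface of the shaft was sorted for the reporter, and about 10000 cells of each kind were obtained from 18 femora of 9 mice in 2 collections. The labels used here state neither age nor sex. The labels give 4 libraries, 2 per group. Each collection pooled mice, so the spread between libraries is not the spread between animals and may be technical.

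Integrins are surface receptors made of an alpha and a beta chain that link the matrix outside a cell to its actin skeleton inside. Most matrix-binding alpha chains pair with the beta chain encoded by Itgb1, while the chain encoded by Itgav also pairs with several other beta chains, the product of Itgb5 among them. In skeletal tissue the alpha chain of Itga10 is known as the receptor of chondrocytes for cartilage collagen, and that of Itga11 as the receptor of fibroblasts and osteogenic cells for fibrillar collagen.

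The deposited table holds group means and no column per library. With 2 libraries a group, its means, highest value and log difference fix the 4 library values of each gene, and from these reads and depths were recovered. Depth came out at 32.0 and 41.6 M reads in TdTomato-positive libraries and at 17.0 and 74.0 M reads in TdTomato-negative ones. Libraries are named here by their group and depth, because no value carries a collection number. Levels are given as exonic RPKM, the reads per kilobase of exon and M reads of depth, which allows genes to be compared with each other. For some genes the values do not show which of a group's 2 levels belongs to which library, and then the assignment with the smaller difference is given first and the other assignment after it. Of the 10 genes, 5 were settled in both groups, 4 were open in the TdTomato-positive group and 2 in the TdTomato-negative group. With all libraries in, fold changes and tests on the deposited scale do not depend on this choice. Values with a library left out were worked out at the first assignment only.

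The TdTomato-negative library of 74.0 M reads stood apart from the other 3. Summed exonic RPKM of 10 chondrocyte markers was 3019 and 686 in the TdTomato-positive libraries of 32.0 and 41.6 M reads, against 121 and 0.477 in the TdTomato-negative libraries of 17.0 and 74.0 M reads. For 9 osteoblast markers the sums were 9042 and 2916 in TdTomato-positive libraries, against 874 and 8.91 in TdTomato-negative ones. For 9 fibroblast and tendon markers they were 3877 and 686, against 1086 and 1.57. With the open genes at their other assignment the osteoblast sums became 2569 and 11344 in TdTomato-positive libraries, against 705 and 744 in TdTomato-negative ones. Acan, Matn3, Mia and Dmp1 had 0 reads in the TdTomato-negative library of 74.0 M reads. Leukocyte markers summed to 418 and 608 in TdTomato-positive libraries, against 776 and 1863 in TdTomato-negative ones, and at the other assignment to 183 and 914, against 636 and 2475. Erythroid markers summed to 13340 and 4906 in TdTomato-positive libraries, against 17081 and 18580 in TdTomato-negative ones, and at the other assignment to 3711 and 17443, against 8543 and 55804. The groups thus overlapped at the other assignment for both lists. At the first assignment the shallower TdTomato-negative library thus lay below both TdTomato-positive libraries for chondrocyte and osteoblast markers and between them for fibroblast and tendon markers, while the deeper one held almost no chondrocyte or fibroblast RNA under either assignment. At the other assignment the fibroblast and tendon sums were 1530 and 3742 in TdTomato-positive libraries, and the shallower TdTomato-negative library lay below both. In bulk RNA, fewer cells of a type and less RNA per cell cannot be told apart. The differences of the 10 genes are given with and without that deeper library.

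**Figure D1:**
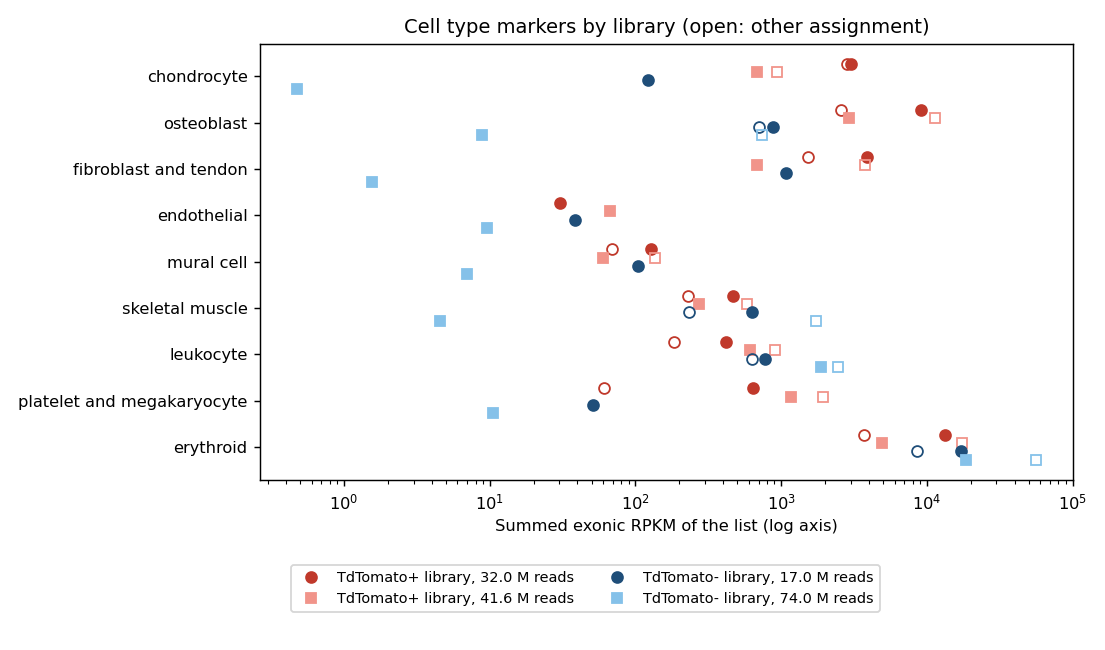
Summed exonic RPKM of 9 lists of cell type markers (log axis) in the 2 TdTomato-positive libraries (red) and the 2 TdTomato-negative libraries (blue). Each point is 1 library, and open points give the other assignment where it differs. The TdTomato-negative library of 74.0 M reads lies at 0.477 for chondrocyte and 1.57 for fibroblast and tendon markers, against 121 and 1086 in the other TdTomato-negative library.

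None of the 10 genes passed the authors' test, and the 3 with the largest log2 folds on the deposited scale were Itga10, Itga11 and Itgb5. The test is the two-sided lognormal model of the authors' deposited table, with a step-up FDR of 0.05 over all genes, by which 0 of the 10 were called and 0.00630% of all genes were called. Every one of the 10 had an FDR of 1.00 in the authors' deposited table. The authors' deposited table also has 0 of the 10 below an unadjusted p of 0.05, against 0.894% of all genes and 2.17% of the 17114 genes with at least 10 reads in 2 libraries. The group mean on the log scale was higher in TdTomato-positive cells for 8 of the 10, against 54.0% of those genes. The median log2 fold was 0.38 for the 10 and 0.06 for all 17114. Log2 folds are differences of mean log2(RPKM + 0.1), with RPKM here per kilobase of the whole gene, the authors' log difference with a further division by depth undone, and they exceeded 1 for 3 of the 10, against 14.4% of genes. The authors' p and FDR were taken as deposited, with that division in place, so depth enters the spread behind them. Both TdTomato-positive libraries lay above both TdTomato-negative ones for Itga10 and Itga9, or 2 of 10 against 15.5% of genes. Both lay below for Itga1, or 1 of 10 against 13.1%. The shares of genes whose libraries did not overlap are near those over all genes and single out nothing about the 10. With 2 libraries against 2, an exact permutation test of a single gene cannot give a two-sided p below 0.333.

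**Figure D2:**
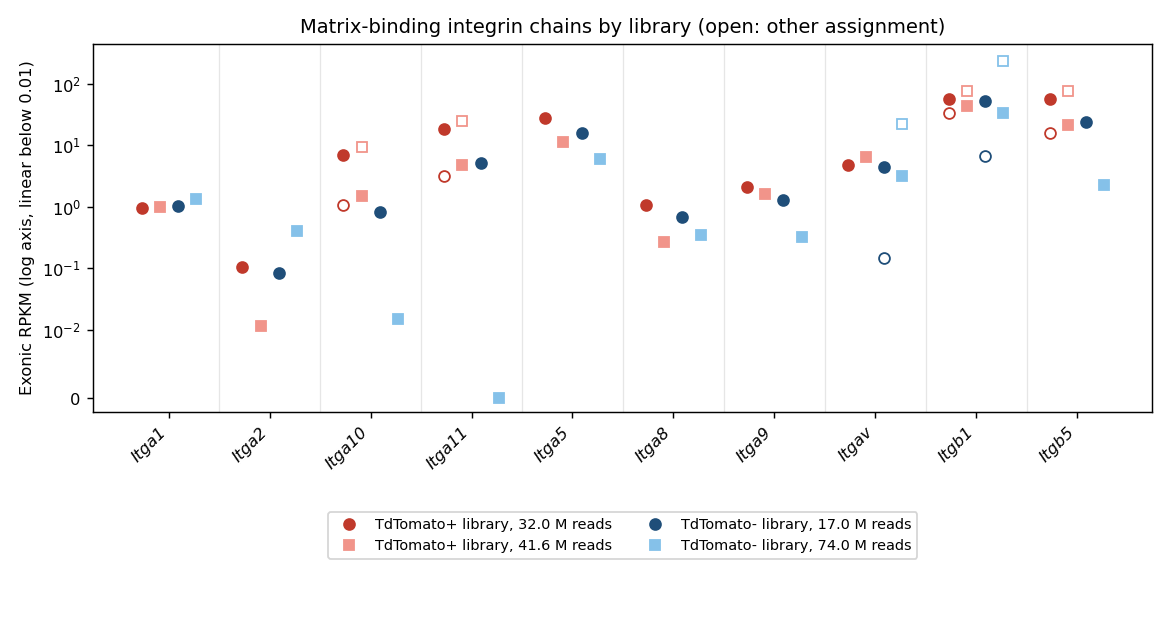
Exonic RPKM of the 10 integrin chains in each library (log axis, linear below 0.01), with TdTomato-positive libraries in red left of TdTomato-negative libraries in blue. Open symbols give the other assignment where the values do not settle it. Itga10 and Itga9 are the genes with both red libraries above both blue ones under every assignment, and Itga11 lies at 0 in the TdTomato-negative library of 74.0 M reads.

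The offset bears on these folds. It is 0.1 RPKM on a length that counts the whole gene with its introns, and the integrin genes have long introns, with spans of 18.9 to 294 kb. On the exonic scale the offset comes to 0.365 RPKM for Itga10 and 3.83 RPKM for Itga9, and it exceeded the level in all 4 libraries for 3 of the 10. For Itga9, the offset equals 940 reads in the TdTomato-positive library of 32.0 M reads, where 526 were recovered. Folds of such genes are held near 0, so the ratio of mean exonic RPKM with no offset is given beside them. The order of the genes differs between these scales. With no offset the log2 ratio was -2.10 for Itga2 and 1.57 for Itgb5, while on the deposited scale the log2 fold was -0.11 for Itga2 and 1.62 for Itgb5.

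Of the collagen receptors, Itga10 and Itga11 had a higher mean level in TdTomato-positive libraries, and Itga1 and Itga2 a lower one, with no difference past the test. Itga10 (ENSMUSG00000090210.7, chromosome 3, 96645584 to 96664519, plus strand, mm10) had 7.02 and 1.51 exonic RPKM in the TdTomato-positive libraries of 32.0 and 41.6 M reads, against 0.837 and 0.0149 in the TdTomato-negative libraries of 17.0 and 74.0 M reads. At the other assignment the TdTomato-positive levels were 1.08 and 9.26, so the groups did not overlap in either case. The lowest of these levels rests on 5.72 reads, a fractional value as recovered, since no source used here states how shared reads were counted. On the deposited scale the group means times span were 37.8 in TdTomato-positive cells and 10.4 in TdTomato-negative cells. Itga10 had a log2 fold of 2.46 and a p of 0.0886 in the authors' deposited table. The ratio of mean exonic RPKM was 3.33 on the log2 scale, and 2.35, or 5.10-fold, without the TdTomato-negative library of 74.0 M reads. A protein-coding model on the same strand, Gm42957, overlaps Itga10, with 83.7 and 5.50 reads in TdTomato-positive libraries against 3.83 and 3.45 in TdTomato-negative ones, so reads may be split between them.

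Itga11 (ENSMUSG00000032243.8, chromosome 9, 62677826 to 62783982, plus strand) had 18.7 and 4.73 exonic RPKM in TdTomato-positive libraries, against 5.18 and 0 in TdTomato-negative ones. At the other assignment the TdTomato-positive levels were 3.15 and 25.02, and the groups overlapped in both cases. No read of Itga11 was recovered among the 74.0 M of the deeper TdTomato-negative library, which allows a level of up to 0.00790 RPKM (3 counts, for counting error only), while 451 reads were recovered from the shallower one. Its log2 fold was 1.62, with a p of 0.270 in the authors' deposited table. The ratio of mean exonic RPKM was 4.53, and 2.27 without the deeper TdTomato-negative library. Between the same libraries, the summed exonic RPKM of markers was 1086 and 1.57 for fibroblasts and tendon, 121 and 0.477 for chondrocytes, 105 and 7.01 for mural cells and 38.7 and 9.60 for endothelial cells. For osteoblasts it was 874 and 8.91, or 705 and 744 at the other assignment. For skeletal muscle it was 630 and 4.57, or 234 and 1727 at the other assignment. Leukocyte and erythroid sums were higher in the deeper library. The part of these cell types in the result was not tested.

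The remaining collagen receptors were low in all libraries. Itga1 (ENSMUSG00000042284.9, chromosome 13, 114958079 to 115101964, minus strand), a receptor that favours the collagen of basement membranes, had 0.942 and 1.00 exonic RPKM in TdTomato-positive libraries, against 1.04 and 1.34 in TdTomato-negative ones. Both TdTomato-positive libraries lay just below both TdTomato-negative ones, with a ratio of 0.817, and of 0.934 without the deeper TdTomato-negative library. After rescaling to reads in genes, the groups overlapped for Itga1. Itga1 had a log2 fold of -0.14 and a p of 0.898 in the authors' deposited table. Pelo, a protein-coding gene on the same strand, overlaps it, with 157 and 453 reads in TdTomato-positive libraries against 86 and 416 in TdTomato-negative ones. Itga2 (ENSMUSG00000015533.8, chromosome 13, 114835916 to 114932041, minus strand), the collagen receptor that platelets also carry, had 14 and 2 reads in TdTomato-positive libraries, against 6 and 128 in TdTomato-negative ones. Those reads make 0.103 and 0.0113 exonic RPKM in TdTomato-positive libraries, against 0.0834 and 0.408 in TdTomato-negative ones, so that Itga2 was high in the library of 74.0 M reads only and the groups overlapped. Itga2 had a log2 fold of -0.11, where the offset was above every level, and a p of 0.917 in the authors' deposited table. With no offset its ratio was 0.233, and 0.688 without that library.

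Within a library, the share of each chain among the collagen receptors does not depend on depth. Itga11 made up 69.9% and 65.2% of their summed exonic RPKM in the TdTomato-positive libraries, against 72.5% and 0% in the TdTomato-negative libraries of 17.0 and 74.0 M reads. Itga10 made up 26.2% and 20.8% in TdTomato-positive libraries, against 11.7% and 0.845% in TdTomato-negative ones. Itga1 made up 3.52% and 13.9% in TdTomato-positive libraries, against 14.6% and 76.0% in TdTomato-negative ones. Itga11 thus led in 3 libraries, and in the deeper TdTomato-negative library Itga1 led and Itga2 took 23.1%. There were 19.9 and 4.71 times as much Itga11 as Itga1 in the TdTomato-positive libraries, against 4.97 and 0 times in the TdTomato-negative ones. With Itga10 and Itga11 both at their other assignment, the Itga11 share was 59.8% and 70.9% in TdTomato-positive libraries, and there was 3.34 and 24.9 times as much Itga11 as Itga1 there. No test was made of these shares.

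**Figure D3:**
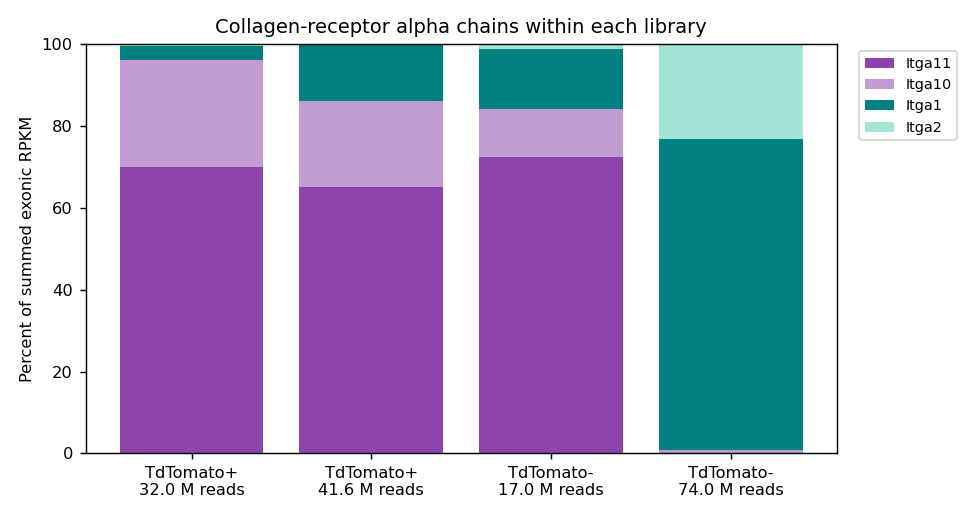
Share of Itga11, Itga10, Itga1 and Itga2 in the summed exonic RPKM of the collagen receptor alpha chains, 1 bar per library, with TdTomato-positive libraries on the left. Itga11 takes 69.9%, 65.2% and 72.5% of the first 3 bars and 0% of the last, the TdTomato-negative library of 74.0 M reads, where Itga1 takes 76.0%.

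The promoter windows are shown for the 3 genes with a log2 fold above 1 on the deposited scale, none of which passed the test, and for Itgb1, the beta chain that most matrix-binding alpha chains share. They are RefSeq sequences of GRCm38.p6, from 250 bases before to 50 bases after the gene start, read 5′ to 3′ on the strand of the gene. A set of 6 motifs was searched on both strands: the SOX core AACAAT, its variant ACAAAG, the RUNX motif TGTGGT, the GC box GGGCGG, the TATA box TATAAA and the AP-1 motif TGANTCA. Capitals mark every match. The windows are chr3:96645334-96645633 (plus strand) for Itga10, chr9:62677605-62677904 (plus strand) for Itga11, chr16:33829415-33829714 (plus strand) for Itgb5 and chr8:128685404-128685703 (plus strand) for Itgb1.
Itga10: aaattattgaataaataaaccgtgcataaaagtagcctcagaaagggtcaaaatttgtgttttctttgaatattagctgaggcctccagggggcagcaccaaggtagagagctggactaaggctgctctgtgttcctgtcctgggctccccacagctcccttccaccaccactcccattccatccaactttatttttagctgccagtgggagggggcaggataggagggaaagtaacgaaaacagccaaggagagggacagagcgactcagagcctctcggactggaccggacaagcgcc
Itga11: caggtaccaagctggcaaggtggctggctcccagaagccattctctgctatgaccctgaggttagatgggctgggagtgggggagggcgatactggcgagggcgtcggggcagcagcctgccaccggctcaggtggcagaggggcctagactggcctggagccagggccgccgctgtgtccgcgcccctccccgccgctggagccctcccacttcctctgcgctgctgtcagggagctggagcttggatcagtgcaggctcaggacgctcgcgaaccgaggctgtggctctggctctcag
Itgb5: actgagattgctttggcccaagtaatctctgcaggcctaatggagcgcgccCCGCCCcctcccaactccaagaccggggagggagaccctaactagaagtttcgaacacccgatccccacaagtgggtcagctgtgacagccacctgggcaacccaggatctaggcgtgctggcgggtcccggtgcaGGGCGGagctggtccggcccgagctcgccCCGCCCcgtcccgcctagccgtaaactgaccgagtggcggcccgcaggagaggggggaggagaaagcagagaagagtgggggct
Itgb1: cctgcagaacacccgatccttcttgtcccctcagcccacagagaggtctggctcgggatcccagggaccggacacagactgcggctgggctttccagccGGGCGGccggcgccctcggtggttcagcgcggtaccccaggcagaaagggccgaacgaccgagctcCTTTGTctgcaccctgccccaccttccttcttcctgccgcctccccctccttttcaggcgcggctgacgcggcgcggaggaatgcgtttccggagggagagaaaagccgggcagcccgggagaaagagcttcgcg
The Itga10 and Itga11 windows hold 0 matches to the 6 motifs. The Itgb5 window holds 3 GC boxes, a motif found in 35.7% of the 32851 promoter windows of the table. The Itgb1 window holds 1 GC box and 1 ACAAAG, which is found in 18.7% of windows. AACAAT is found in 10.7%, the RUNX motif in 16.8%, the TATA box in 13.6% and the AP-1 motif in 7.81%. Among the 10 windows, AACAAT occurs in that of Itga8 and the AP-1 motif in that of Itga9, whose RefSeq start lies 105002 bases inside the deposited gene. The RUNX motif and the TATA box occur in 0 of the 10. Itga10 has 6 CG dinucleotides in its window, the fewest of the 10, against 16 for Itga11, 20 for Itgb5 and 27 for Itgb1. The median over all promoter windows is 7, so the count of Itga10 is near it. These matches describe the letters of the windows and nothing further.

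Among the other alpha chains, levels of Itga5 and Itga9 were higher in TdTomato-positive libraries, but no difference passed. Itga5 (ENSMUSG00000000555.6, chromosome 15, 103344289 to 103366763, minus strand), the alpha chain of the main fibronectin receptor, was the most abundant alpha chain in both groups by mean at the first assignment. It had 27.7 and 11.4 exonic RPKM in TdTomato-positive libraries, against 16.0 and 5.93 in TdTomato-negative ones. The groups overlapped, since the TdTomato-negative library of 17.0 M reads lay between the TdTomato-positive ones. Itga5 had a log2 fold of 0.84 and a p of 0.578 in the authors' deposited table, and a ratio of 1.78, which was 1.22 without the deeper TdTomato-negative library. It was well covered, with 4370 and 2346 reads in TdTomato-positive libraries and 1342 and 2162 reads in TdTomato-negative ones.

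Itga9 (ENSMUSG00000039115.13, chromosome 9, 118606690 to 118901003, plus strand), a receptor for tenascin C, had 2.14 and 1.59 exonic RPKM in TdTomato-positive libraries, against 1.31 and 0.320 in TdTomato-negative ones. The groups did not overlap. Its ratio of mean exonic RPKM was 2.29, and 1.43 without the deeper TdTomato-negative library. Its log2 fold was 0.30 under the large offset, with a p of 0.858 in the authors' deposited table. On the opposite strand, the pseudogene Gm10157 lies within its span, with 276 and 341 reads in TdTomato-positive libraries, against 41.1 and 591 in TdTomato-negative ones. An antisense gene, Gm2415, has 68.0 and 14 reads there, against 2 and 29.4. No source used here states whether the counting used strand.

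For Itga8 and Itgav the direction depended on a library or on the assignment. Itga8 (ENSMUSG00000026768.10, chromosome 2, 12106632 to 12301922, minus strand), a receptor for nephronectin, had 1.07 and 0.264 exonic RPKM in TdTomato-positive libraries, against 0.672 and 0.353 in TdTomato-negative ones. The TdTomato-positive libraries were its highest and its lowest, and its log2 fold of 0.06 turned to -0.12 without the TdTomato-positive library of 32.0 M reads and to -0.01 without the deeper TdTomato-negative one. Itgav (ENSMUSG00000027087.11, chromosome 2, 83724397 to 83806916, plus strand), which pairs with several beta chains to bind vitronectin and other proteins with the RGD motif, had 4.72 and 6.55 exonic RPKM in TdTomato-positive libraries, against 4.49 and 3.22 in TdTomato-negative ones. At the other assignment the TdTomato-negative levels were 0.147 and 22.2, so whether the groups overlapped is open. The ratio was 1.31 for Itga8 and 0.996 without the deeper TdTomato-negative library. For Itgav at the first assignment it was 1.46, and 1.25 without that library, but at the other assignment 0.505 with all libraries in. Without that library the TdTomato-negative level left at the other assignment would be 0.147, below both TdTomato-positive levels. Their p in the authors' deposited table was 0.989 for Itga8 and 0.764 for Itgav.

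At the first assignment Itgb1 was the most abundant of the 10 genes and the levels of the groups interleaved. Itgb1 (ENSMUSG00000025809.15, chromosome 8, 128685654 to 128733200, plus strand) had 57.5 and 43.7 exonic RPKM in TdTomato-positive libraries, against 53.3 and 33.5 in TdTomato-negative ones. At the other assignment the levels were 33.3 and 75.2 in TdTomato-positive libraries, against 6.79 and 236 in TdTomato-negative ones. At the first assignment the ratio of mean exonic RPKM was 1.17, and 0.950 without the deeper TdTomato-negative library. At the other assignment it was 0.447 with all libraries in. Itgb1 had a log2 fold of 0.24 and a p of 0.889 in the authors' deposited table. Without the deeper TdTomato-negative library its log2 fold was -0.09 at the first assignment. At the other assignment the TdTomato-negative level left would be 6.79, below both TdTomato-positive levels, so this reversal depends on the assignment.

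Itgb5 (ENSMUSG00000022817.14, chromosome 16, 33829665 to 33949153, plus strand), a partner of the Itgav chain in binding vitronectin, had 57.3 and 21.6 exonic RPKM in TdTomato-positive libraries, against 24.3 and 2.24 in TdTomato-negative ones. At the other assignment the TdTomato-positive levels were 15.8 and 75.7. The groups overlapped in both cases, through the TdTomato-negative library of 17.0 M reads. Its log2 fold was 1.62, with a p of 0.267 in the authors' deposited table. The ratio of 2.97 became 1.62 without the deeper TdTomato-negative library. Set against Itgb1 in the same library, Itgb5 stood at 0.997 and 0.494 in TdTomato-positive libraries, against 0.456 and 0.0667 in TdTomato-negative ones. With both genes at their other assignment the values were 0.473 and 1.01 in TdTomato-positive libraries, against 3.58 and 0.00946 in TdTomato-negative ones, so this comparison depends on the assignment.

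**Figure D4:**
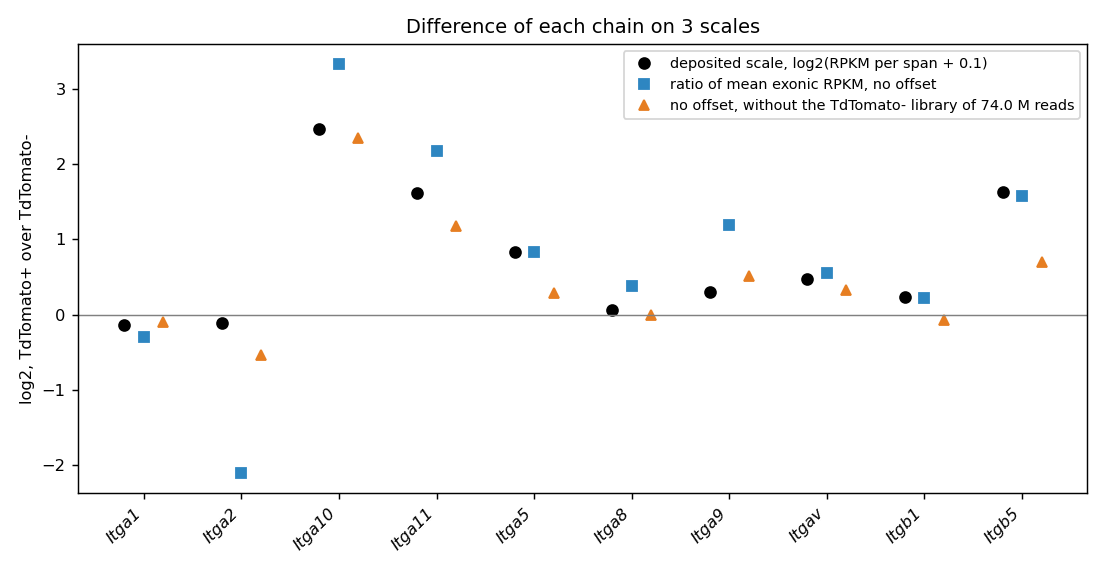
Log2 difference of each chain, TdTomato-positive over TdTomato-negative, on the deposited scale with its offset (black), as the ratio of mean exonic RPKM with no offset (blue) and as that ratio without the TdTomato-negative library of 74.0 M reads (orange). Itga10 is highest on all 3 scales, at 2.46, 3.33 and 2.35, and leaving out that library brings Itga11 to 1.18 and Itgb5 to 0.70. Blue and orange points are at the first assignment.

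At the first assignment, the order in TdTomato-positive cells of mean exonic RPKM over the 2 libraries was Itgb1 (50.6), Itgb5 (39.5), Itga5 (19.6), Itga11 (11.7), Itgav (5.63), Itga10 (4.27), Itga9 (1.87), Itga1 (0.973), Itga8 (0.669) and Itga2 (0.0574). Only Itga9 over Itga1 and Itga8 over Itga2 were neighbours whose libraries did not overlap. In TdTomato-negative cells it was Itgb1 (43.4), Itgb5 (13.3), Itga5 (11.0), Itgav (3.86), Itga11 (2.59), Itga1 (1.19), Itga9 (0.815), Itga8 (0.512), Itga10 (0.426) and Itga2 (0.246). There, no pair of neighbours was separated under every assignment. Itga10 was the sixth gene in the TdTomato-positive order and the ninth in the TdTomato-negative one.

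A limma fit on log2(exonic RPKM + 0.1), added after the offset had been seen, tested the same differences with a smaller offset. It called 0 of 17058 genes at an adjusted p below 0.05, and 7.06% at an unadjusted p below 0.05, with 0 of the 10 among them. Itga10 had a log2 fold of 3.37 ± 1.41 (SE; limma adjusted p = 0.643), Itga11 of 3.71 ± 1.98 (limma adjusted p = 0.643) and Itgb5 of 2.22 ± 1.20 (limma adjusted p = 0.643). Itga9 followed at 1.34 ± 0.96 (limma adjusted p = 0.674). Without the TdTomato-negative library of 17.0 M reads, Itga10, Itga11 and Itgb5 had an unadjusted limma p below 0.05, or 3 of 10 against 12.3% of genes. That fit holds a single TdTomato-negative library, the one that stood apart, which is assumed to vary like the TdTomato-positive pair. Those 3 genes were open in the TdTomato-positive group and were fitted at the first assignment only. That assignment has the smaller difference between the pair, so their p depends on it. Without the library of 74.0 M reads their limma log2 folds were 1.85, 0.85 and 0.53, and their adjusted p was 0.973 in each case.

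Other integrin chains were compared to place these genes. Of 4 laminin-binding chains 3 had a higher log mean in TdTomato-positive cells, and 0 had an unadjusted p below 0.05. Itga7, a laminin receptor of muscle, had 3.79 and 1.45 exonic RPKM in TdTomato-positive libraries, against 1.56 and 0 in TdTomato-negative ones. Itga6, whose product is found on epithelial, endothelial and blood cells, had 1.50 and 2.24 in TdTomato-positive libraries, against 3.11 and 3.47 in TdTomato-negative ones, and was the 1 chain of this list with both TdTomato-positive libraries below both TdTomato-negative ones. Itga3 stayed at or below 0.384 in every library. Itgb4, the partner of Itga6 in epithelia, had 1.38 and 1.31 in TdTomato-positive libraries, or 0.896 and 1.94 at the other assignment, against 0.941 and 0.0790 in TdTomato-negative ones.

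All 8 leukocyte integrin chains had a lower log mean in TdTomato-positive cells (median log2 fold -1.62). Among them 2 had an unadjusted p under 0.05 in the authors' deposited table, Itgam at 0.0334 and Itgal at 0.0465, against 0.590% of genes that were lower at that level, and both had an FDR of 1.00. Both TdTomato-positive libraries lay below both TdTomato-negative ones in 5 of the 8, against 13.1% of genes. Without the TdTomato-negative library of 74.0 M reads, the mean exonic RPKM was lower in TdTomato-positive libraries for 7 of the 8. Itgam, the alpha chain of the complement receptor on myeloid cells, had 3.89 and 26.5 exonic RPKM in TdTomato-positive libraries, against 47.5 and 178 in TdTomato-negative ones, or 40.0 and 211 at the other assignment. Its ratio was 0.135, and 0.320 without that library. Itgal, the alpha chain of the leukocyte receptor LFA, had 0.915 and 3.90 in TdTomato-positive libraries, against 9.58 and 31.3 in TdTomato-negative ones. For Itgb2, the beta chain that both share, the levels were 14.3 and 76.9 in TdTomato-positive libraries, against 84.5 and 228 in TdTomato-negative ones, or 51.5 and 372 at the other assignment. For these 3 chains the TdTomato-positive library of 32.0 M reads was lowest and the TdTomato-negative library of 74.0 M reads highest, as for the leukocyte markers, whose part in the result was not tested.

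Of the remaining leukocyte chains, Itgb7 lay above Itgal in every library, and Itga4, Itgax, Itgad and Itgae lay below it. Itga4 had 0.441 and 1.34 exonic RPKM in TdTomato-positive libraries, against 1.90 and 7.88 in TdTomato-negative ones, with a ratio of 0.182, and of 0.468 without the deeper TdTomato-negative library. Itgax had 0.736 and 1.26 in TdTomato-positive libraries, against 2.54 and 2.09 in TdTomato-negative ones. Itgb7, a partner of Itga4 on lymphocytes and mast cells, had 2.32 and 37.3 in TdTomato-positive libraries, against 13.9 and 60.9 in TdTomato-negative ones, and overlapped. Its ratio of 0.530 turned to 1.43 without that library. Itgad and Itgae had 0 reads in the TdTomato-positive library of 32.0 M reads and at most 1.44 exonic RPKM in any library.

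The platelet chain Itga2b had 2.47 and 25.4 exonic RPKM in TdTomato-positive libraries, against 3.87 and 2.58 in TdTomato-negative ones, so 1 TdTomato-positive library stood out. Its partner Itgb3 had 2.83 and 8.24 in TdTomato-positive libraries, against 4.17 and 6.02 in TdTomato-negative ones. Itgb8, a beta chain that pairs with Itgav, had 1.24 and 0.0935, against 0.123 and 0.0159. Itgb6, another partner of Itgav, was at 0.0132 in 1 TdTomato-positive library and had 0 reads in the other 3 libraries. None of these 4 had an unadjusted p below 0.05.

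**Figure D5:**
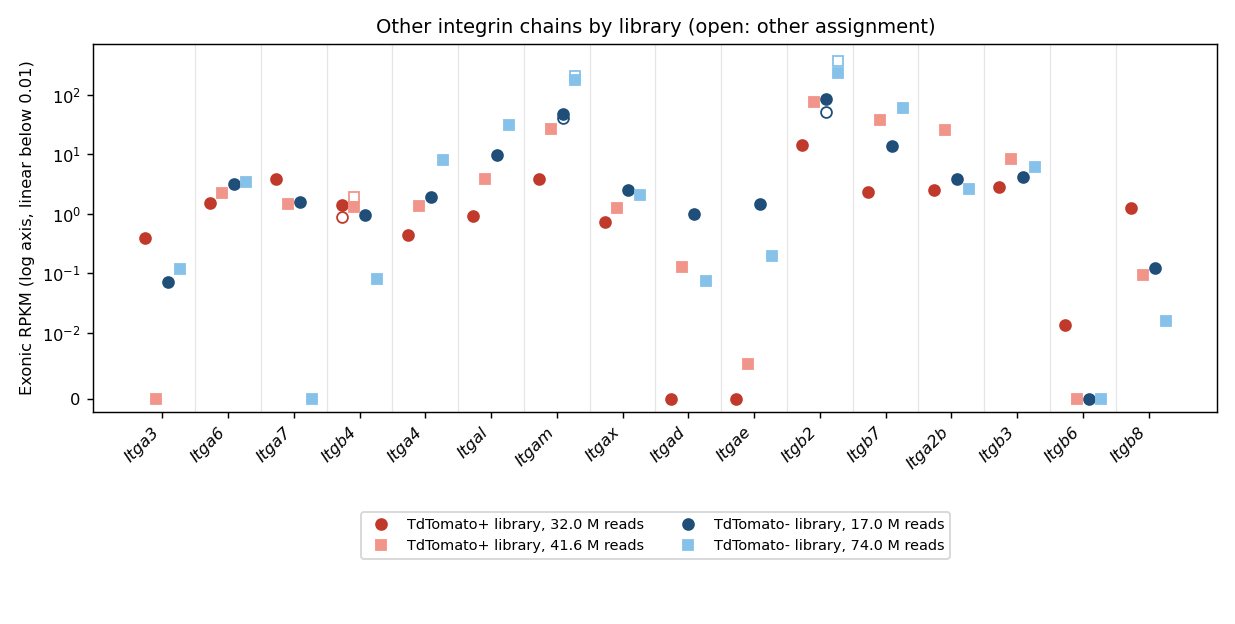
Exonic RPKM of 16 other integrin chains in each library (log axis, linear below 0.01), TdTomato-positive in red left of TdTomato-negative in blue, with open symbols for the other assignment. The leukocyte chains Itga4, Itgal, Itgam and Itgax lie lower in both TdTomato-positive libraries than in both TdTomato-negative ones, while Itga7 lies at 0 in the TdTomato-negative library of 74.0 M reads.

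Genes of the adhesion plaque, the protein layer that ties integrins to actin, showed no shared direction. Of 19 such genes 11 had a higher and 8 a lower log mean in TdTomato-positive cells (median log2 fold 0.23), and 0 had an unadjusted p below 0.05. Fermt2, a kindlin, which helps to activate integrins, had 18.1 and 4.49 exonic RPKM in TdTomato-positive libraries, against 14.3 and 0.00260 in TdTomato-negative ones, with a log2 fold of 1.20. The ratio of mean exonic RPKM of Fermt2 was 1.58 and turned to 0.789 without the TdTomato-negative library of 74.0 M reads. Bcar1 and Tns1, adaptor proteins of the plaque, had log2 folds of 0.95 and 0.80. Bcar1 had a ratio of 2.48, and of 1.27 without that library, and Tns1 a ratio of 1.98, and of 1.15 without it. Without it, 9 of the 19 had a higher mean in TdTomato-positive libraries. At the other end were Pxn, Vcl and Tln1, which encode paxillin, vinculin and talin, with log2 folds of -1.58, -1.50 and -1.14. Tln1 had a ratio of 0.368, and of 0.867 without that library. Pxn and Vcl had ratios of 0.301 and 0.287, and of 0.441 and 0.417 without it, at the first assignment. Pxn was open in both groups, with TdTomato-negative levels of 15.8 and 30.5 exonic RPKM, or 6.54 and 70.9 at the other assignment. Its TdTomato-positive levels were 6.27 and 7.66, or 5.74 and 8.34, so its ratio without that library depends on the assignment. Vcl had 4.01 and 4.99 exonic RPKM in TdTomato-positive libraries, or 3.53 and 5.61 at the other assignment, against 10.8 and 20.6 in TdTomato-negative ones. The groups of Vcl did not overlap at either assignment.

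Genes for ligands of these receptors were mostly higher in TdTomato-positive cells. Of 22 ligand genes 21 had a higher log mean there, with a median log2 fold of 2.67, and 10 were under an unadjusted p of 0.05 in the authors' deposited table, against 1.58% of genes that were higher at that level. Col2a1, which encodes the cartilage collagen that Itga10 binds, rose, with 298 and 216 exonic RPKM in TdTomato-positive libraries, or 166 and 388 at the other assignment, against 0.688 and 0.00731 in TdTomato-negative ones. Its log2 fold was 8.80 and its FDR in the authors' deposited table was 4.28e-05, the 1 ligand gene to pass. Col1a1 and Col1a2, the chains of the fibrillar collagen of bone and tendon that Itga11 binds, had log2 folds of 5.33 and 5.16, with FDRs of 0.756 and 0.832 in the authors' deposited table. Col1a1 had 3305 and 396 exonic RPKM in TdTomato-positive libraries, against 483 and 1.43 in TdTomato-negative ones, and overlapped. Without the TdTomato-negative library of 74.0 M reads, the ratio of mean exonic RPKM was 3.83 rather than 7.63 for Col1a1 and 2.90 rather than 5.79 for Col1a2. Without it 21 of the 22 had a higher mean in TdTomato-positive libraries, the exception being Vtn, at a ratio of 0.761. With all libraries, Tgfb1 was the 1 ligand gene with a lower log mean, at a log2 fold of -0.08, and its ratio was 1.27 without that library. Both TdTomato-positive libraries lay above both TdTomato-negative ones in 4 of the 22, against 15.5% of all genes with enough reads. This list shares Col1a1, Col2a1 and Ibsp with the cartilage and bone markers, and those lists were chosen knowing how such genes differ here.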

How the data were processed

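RNA of sorted cells was sequenced as 75-nucleotide pairs from SMARTer low-input libraries, per the labels' protocols, and mapped and compared with STAR and Partek on mm10, per the submitters' processing notes, with versions stated in no source used here. Per the file headers, the authors' deposited table gives group means of a normalized signal, the highest value as a score, the difference of group means on the natural log scale, a ratio of means, and a p-value and its FDR (step-up) of a shrunken lognormal model. There were 0 columns of single samples left unused.

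These columns were solved for the 4 library values, with exactly 1 solution for each of 47643 genes. The values matched RPKM per genomic span plus 0.1, divided by depth and span once more. No header states this scale, its offset or the depths, which rest on the values alone. After the second division, genes with no reads have a ratio of 0.764 in the authors' deposited table (2.77 for TdTomato-positive over 3.62 for TdTomato-negative cells), and 6 of the 10 genes have a ratio below 1, so that ratio is not used. The authors' p-value and FDR rest on the same divided signal and were kept. With depths of 17.0 and 74.0 M reads, the division also changes the spread within the TdTomato-negative group. The limma fits were made with the division undone. Values were assigned to libraries where the other assignment gave negative reads. Otherwise they were assigned by whole reads (within 0.01 plus a share of 1e-07, at most 0.05, or 0.002 where 1 value of a pair was whole). Together these rules settled 68.0% of 17114 genes with at least 10 reads in 2 libraries. Exon lengths came from GENCODE vM21 within the deposited span, and exonic RPKM assumes that reads fall in exons. Between 65.2% and 85.9% of the depth lay in genes.

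The authors' p-value and FDR were the main test, as designed. Limma 3.58.1 in R 4.3.3 was the alternative, with other pseudocounts (1 and 0.1), filters, assignments and scaling, each library left out and a replicate block. The solution, the assignment and limma were tested on simulated data. The simulated reads were whole and 99.97% of genes were settled there, so the assignment of fractional reads was not tested. In the limma simulation no library stood apart from its group, unlike here. All chains of the integrin lists are described, and of the plaque and ligand lists the 3 genes with the largest log2 fold in each direction (1 ligand gene was lower). Genes and lists were chosen with earlier results of these data known. Promoter windows were matched by symbol for all 10 genes.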

Additional observations from a re-analysis of the deposited data

How the results depend on the processing

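On the deposited scale and in limma, 0 of the 10 genes passed an adjusted p of 0.05 under any alternative run. Directions held under every alternative run for them for 7 of the 10. Each library was left out at the first assignment only. Itga8 reversed without the TdTomato-positive library of 32.0 M reads (-0.12 on the deposited scale, -0.70 in limma on exonic RPKM and -0.96 from means with no offset) and without the TdTomato-negative library of 74.0 M reads (-0.012, -0.24 and -0.0061). At the first assignment Itgb1 reversed without the TdTomato-negative library of 74.0 M reads (-0.085 on the deposited scale, -0.069 in limma on RPKM + 1, -0.087 on exonic RPKM and -0.074 from means with no offset). With all libraries in, it also reversed at its other assignment (-0.11 in limma and -1.16 from means). Itgav reversed at its other assignment with all libraries in (-0.99 from means). At their other assignment Itga10, Itga11 and Itgb5 stood at 3.60, 2.44 and 1.78 from means. Without the shallower TdTomato-negative library Itga11 has no ratio of means, being at 0 in the other. The cause was not tested. The number of genes with an unadjusted p below 0.05 was 0, and 0 to 3 in limma on exonic RPKM with a library left out. The median log2 fold of the 10 was 0.38, with 0.69 from means with no offset, 0.20 in limma with no filter and 0.70 in limma on exonic RPKM. With a library left out it ran from 0.15 to 0.62 on the deposited scale, with 0.22 without the TdTomato-positive library of 32.0 M reads. In limma on exonic RPKM it was 1.24 without the deeper TdTomato-positive library, 1.17 without the shallower TdTomato-negative one, and 0.23 without the deeper TdTomato-negative one. The number of genes higher in TdTomato-positive cells was 6 to 8 of 10 throughout. After rescaling to reads in genes 2, not 3, had libraries that did not overlap, with Itga1 no longer among them. Limma on RPKM + 1 fitted only Itga5 and Itgb1, the other 8 being under its filter of 1 RPKM per genomic span. The collections pair the libraries but the values do not show how. With a replicate block on 3329 resolved genes, limma called 47 genes with the first possible pairing (27 higher, 20 lower) and 0 with the second, where 90 had an unadjusted p below 0.05, against 0 with no block, where 233 had. Of the 10, only Itga5 could be fitted with the block, with a log2 fold of 0.63 and an adjusted p of 0.221 and 0.965. The fits on exonic RPKM, the omissions of a library on the deposited scale and from means, the other assignment of means, and the median and count from means with no offset were chosen after seeing the data.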
